A study of Mus musculus with 13 samples.

Results

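Complex I and complex III are proton-pumping enzymes of the mitochondrial respiratory chain. Complex I (NADH dehydrogenase) takes electrons from NADH and passes them to ubiquinone, and complex III (ubiquinol-cytochrome c reductase) passes them from ubiquinol to cytochrome c. Nuclear genes named Nduf and Uqcr encode most of their subunits, and the mitochondrial genome encodes the rest. The genes described here are those whose symbol begins with Ndufa, Ndufb, Ndufc, Ndufs, Ndufv or Uqcr, leaving out assembly factors (Ndufaf) and pseudogenes. This gave 44 genes of 30145 symbols on the array, 36 named for complex I (Nduf, with Ndufa4 and Ndufa4l2 counted by name) and 8 for complex III (Uqcr), each with 1 array feature (a transcript cluster). The rule rests on gene names, not on measured values, though the set was chosen with earlier results of these data known.

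Expression was measured in endometrium from 13 female C57BL/6 mice, all ovariectomized at 6 to 8 weeks of age and then treated for 12 weeks. CON mice ate normal chow (n = 3), E2 mice ate chow and carried a subcutaneous pellet that releases 17-β estradiol (n = 4), HD mice ate a high-fat diet (n = 3), and MIX mice had both the pellet and the high-fat diet (n = 3). The pellet dose, the diet's composition and whether mice without the hormone received an empty pellet are not stated in the labels. The uterine lining was scraped off, so each sample holds a mixture of cells, and a change in the number of cells of a type cannot be told apart from a change in RNA per cell.

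Values are log2 expression, and a difference of 1 is a doubling. Precision is limited by the number of mice. At the median standard error (SE), the 95% interval of a member's difference reached 0.267 to each side for E2 minus CON and 0.327 for MIX minus CON, which is about 20.3% and 25.4% of the level. The epithelial markers Epcam (group means 10.54 to 10.59) and Krt8 (11.27 to 11.48) and the stromal markers Dcn and Vim were bright. Among fat cell markers, Adipoq averaged 3.15 to 3.58 and Fabp4 4.26 to 4.55, below the median of all features (4.62). Lep lay on both sides of it (4.38 to 4.67), while Plin1, Cidec, Pck1 and Lipe (7.02 to 7.48) lay above it. Every member's mean lay above that median.

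E2 replicate 1 and MIX replicate 3 stand apart from the other mice in granulocyte markers. These (6 of 6 measured) averaged 8.70 and 10.24, where CON mice ranged from 4.80 to 5.37, HD mice from 5.54 to 5.89, and the lowest E2 and MIX mice had 6.33 and 6.52. Basal squamous markers averaged 7.92 and 9.48 in the same mice. They ranged from 5.91 to 6.34 in CON, 6.03 to 6.15 in HD, 6.61 to 7.92 in E2 and 7.68 to 9.48 in MIX, so that E2 replicate 1 lay within the range of MIX mice. MIX replicate 2 stands apart in endothelial markers (7 measured), which averaged 7.84 there and at most 6.21 in the mice of the other groups. S100a8, which defines granulocytes here, averaged 3.28 in CON, below the median feature. The 12 macrophage markers averaged 6.74 to 7.14 in CON mice, 7.51 to 7.60 in HD, 7.77 to 8.18 in E2 and 7.76 to 9.04 in MIX. The granulocyte and macrophage shifts run with pellet and diet. Basal squamous markers of HD mice lay within the range of CON mice, and the endothelial shift rests on MIX replicate 2. The part of all these shifts in the results below was not tested. Counts over the set are given with and without the mouse or mice that move them most.

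Many respiratory genes share short promoter sequences that bind common regulators, such as NRF1 and YY1, and the members tended to move together between mice, as shown further on. RefSeq promoter windows (assembly GRCm38.p6, 250 bases before to 50 after the start) were found for 37 of the 44 genes. The letters AAGATGGC, known for YY1 and searched on both strands, occurred in 7 of the 37 genes (18.9%) and in 3.57% of 17491 protein-coding genes. All 7 matches lay on the gene's strand, 23 to 39 bases after the start, and the letters contain ATG. The stretches around them follow 5′ to 3′ on the gene's strand, with the match in capitals.
Ndufc1, chr3:51408917-51408942, minus strand: ctgcggaacAAGATGGCgccgtccgt
Ndufa9, chr6:126849099-126849124, minus strand: ttgtgggagAAGATGGCggccgccgt
Ndufa3, chr7:3617386-3617411, plus strand: gccaagaacAAGATGGCcgggagtaa
Ndufs7, chr10:80249464-80249489, plus strand: gccgaggccAAGATGGCggcgctggc
Ndufs6, chr13:73328433-73328458, minus strand: gtcaccggcAAGATGGCggcggtgct
Ndufs4, chr13:114388045-114388068, minus strand: gcctacaggAAGATGGCggcggtc
Ndufb8, chr19:44555393-44555413, minus strand: gagaaggtgAAGATGGCtgcc

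The palindrome known for NRF1, with its sixth base left free and searched on both strands, occurred in 6 of 37 genes (16.2%) and in 7.17% of protein-coding genes. It includes the exact palindrome, found in Uqcrc1 alone (2.7% against 1.47%). Stretches of 4 of the 6 genes are shown to compare their letters, with the match in capitals. The match of Ndufa8 and that of Ndufs6 read on the other strand, so the free base is the fifth as printed.
Uqcrc1, chr9:108936669-108936696, plus strand: ctccgctctGCGCATGCGCagcgcggct
Ndufs5, chr4:123718266-123718293, minus strand: ctgcttgctGCGCAGGCGCagacccgct
Ndufa8, chr2:36049350-36049377, minus strand: tagagcagtGCGCTTGCGCgtcgctgga
Ndufs6, chr13:73328480-73328507, minus strand: gactgctgtGCGCCTGCGCcggcacttg
The other letters searched on both strands were CCGGAAG (ETS factors, 16.2% against 12.9%), CCAAT (NFY, 29.7% against 42.3%), AAGGTCA (estrogen-related receptors, 5.41% against 4.73%), ACGTG (hypoxia-inducible factors, 18.9% against 23.2%) and TATAAA (the TATA box, 10.8% against 14.8%). The estrogen receptor palindrome with 3 free bases between its arms was in 0 of the 37 windows and in 0.0629% of protein-coding genes. These shares describe letters in a window of 300 bases and are not evidence of binding.

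Ndufa1 encodes a small membrane subunit of complex I that is needed for its assembly, and its gene is on the X chromosome. It was lowest in the chow controls. CON mice had 7.21, 7.30 and 6.90, E2 mice 7.74, 7.83, 7.49 and 7.53, HD mice 7.38, 7.87 and 7.53, and MIX mice 7.76, 7.64 and 7.47. All 10 treated mice lay above all 3 CON mice, which holds for this 1 member and for 0.538% of all features. The 3 treated groups overlapped one another, with means of 7.65 in E2, 7.59 in HD and 7.62 in MIX against 7.14 in CON. The fitted difference from CON was 0.50 for E2 (SE 0.13, 95% interval 0.21 to 0.78), 0.46 for HD (SE 0.14, 0.15 to 0.76) and 0.62 for MIX (SE 0.16, 0.27 to 0.97). None passed in limma after Benjamini-Hochberg adjustment over all features, with adjusted p = 1, 1 and 0.353. The 3 comparisons share their CON mice. CON replicate 3 was the lowest mouse, and the other CON mice were also below every treated mouse.

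The 250 bases before the start of Ndufa1 are printed because this gene separated the control mice from all others. The single match in them, ACGTG, is in capitals.
Ndufa1, chrX:37191239-37191488, minus strand: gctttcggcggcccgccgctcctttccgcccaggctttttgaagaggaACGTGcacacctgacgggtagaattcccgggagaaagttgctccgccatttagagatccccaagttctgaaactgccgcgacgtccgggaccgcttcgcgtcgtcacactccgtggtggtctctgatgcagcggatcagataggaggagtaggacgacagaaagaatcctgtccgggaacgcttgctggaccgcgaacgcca

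Ndufa4 and Ndufa4l2 are paralogs. Ndufa4 was named as a complex I subunit and is now known as a subunit of complex IV, and Ndufa4l2 is known as a gene induced by low oxygen whose product restrains complex I. Ndufa4l2 was highest in MIX. MIX mice had 5.80, 5.93 and 6.21, CON mice 5.52, 5.58 and 5.15, E2 mice 5.43, 5.48, 5.26 and 5.49, and HD mice 5.29, 5.08 and 5.47. All 3 MIX mice lay above the other 10, again the 1 member of the 44 and 0.502% of all features. The difference was 0.70 from HD (SE 0.17, adjusted p = 0.576 in limma), 0.57 from E2 (SE 0.17, adjusted p = 1) and 0.56 from CON (SE 0.17, adjusted p = 0.433). Without CON replicate 3 the difference from CON was 0.24. MIX replicate 3, with the highest granulocyte markers, was also the highest mouse for this gene, but the other MIX mice remained above the mice of every other group.

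Ndufa4 had the opposite order. MIX mice had 9.793, 9.839 and 9.671, HD mice 10.324, 10.594 and 10.004, E2 mice 10.503, 10.016, 9.998 and 10.027, and CON mice 10.022, 10.065 and 9.724. The MIX mice lay below all HD and all E2 mice, and overlapped CON through CON replicate 3. The fitted difference was -0.34 for MIX minus HD (SE 0.16, adjusted p = 0.710 in limma) and 0.37 for HD minus CON (SE 0.14, adjusted p = 1). Without the term for the style of the animal codes, described with the methods, MIX minus HD was -0.54. The interaction compares the effect of the pellet between diets (MIX minus HD, less E2 minus CON). It was 0.70 for Ndufa4l2 (SE 0.23) and -0.51 for Ndufa4 (SE 0.21). Both had an adjusted p of 1 in limma.

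**Figure D1:**
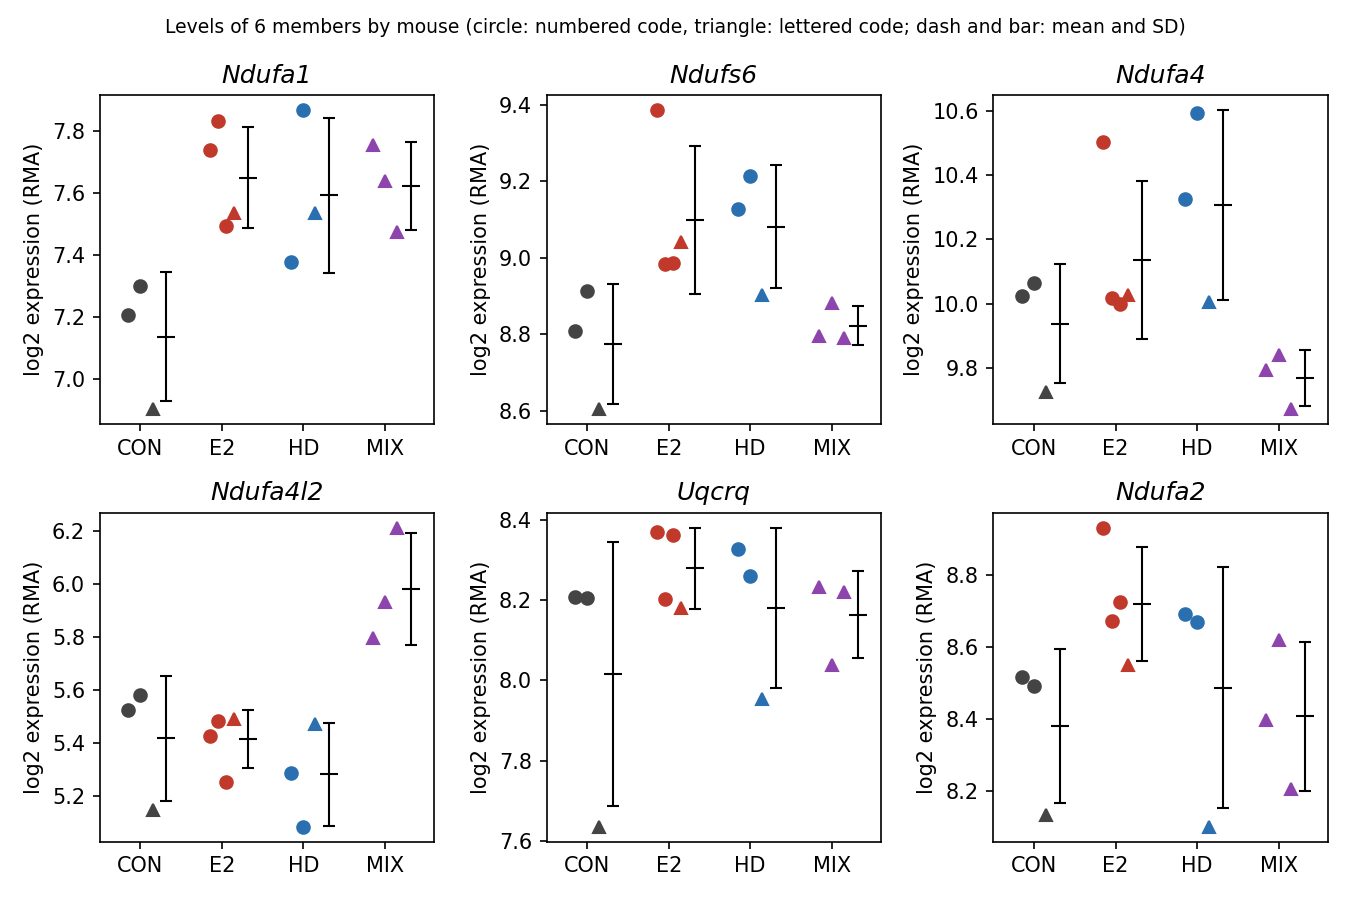
Log2 expression of 6 members in each mouse (points; circles are mice with numbered codes, triangles with lettered codes), by treatment group, with the group mean and SD beside them. Ndufa1 is lowest in the 3 CON mice (6.90 to 7.30), and Ndufa4l2 is highest in the 3 MIX mice (5.80 to 6.21).

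The catalytic core of complex I holds few large differences. Its NADH-oxidising part is represented by Ndufv1 (binds NADH and flavin), Ndufv2 and Ndufs1 (iron-sulfur subunits). Ndufv1 was nearly level, with group means from 8.00 in MIX to 8.05 in HD. Ndufv2 had 8.22 ± 0.02 in CON (SD, n = 3), 8.37 ± 0.26 in E2 (SD, n = 4), 8.35 ± 0.26 in HD (SD, n = 3) and 8.12 ± 0.06 in MIX (SD, n = 3). Its MIX mice (8.15, 8.17 and 8.06) lay below all CON mice (8.20 to 8.23) and all E2 mice (8.17 to 8.74), though the nearest mice differed by under 0.05. Ndufs1 averaged 7.90 in CON, 8.08 in E2, 8.05 in HD and 7.93 in MIX.

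The quinone-reducing part is represented by Ndufs3, Ndufs7 and Ndufs8, of which the last 2 carry the iron-sulfur clusters leading to ubiquinone. Ndufs7 was highest in CON, at 8.74, 8.66 and 8.74. E2 mice had 8.43, 8.58, 8.57 and 8.60, HD mice 8.54, 8.39 and 8.59, and MIX mice 8.58, 8.70 and 8.13. It was the 1 member whose E2 mice, and again whose HD mice, all lay below CON, against 2.6% and 2.96% of features for these orders. The fitted differences were -0.21 for HD (SE 0.13) and -0.30 for MIX (SE 0.15, adjusted p = 0.640 in limma), and the latter was -0.13 without MIX replicate 3. Ndufs3 averaged 7.37 in CON, 7.39 in E2, 7.41 in HD and 7.24 in MIX. Ndufs8 averaged 9.23, 9.43, 9.35 and 9.32 in the same order of groups, with a single high value of 9.94 in E2 replicate 1.

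Ndufs6 encodes a zinc-binding subunit added late in the assembly of the NADH-oxidising part. In plain group means, its pellet difference ran in opposite directions on the 2 diets. CON mice had 8.81, 8.91 and 8.60 and E2 mice 9.39, 8.98, 8.99 and 9.04, so that all E2 mice were above all CON mice. HD mice had 9.13, 9.21 and 8.90 and MIX mice 8.80, 8.88 and 8.79, so that all MIX mice were below all HD mice, the nearest by 0.02. The HD mouse at 8.90 is the only HD mouse with a lettered code, which all MIX mice carry. The difference was 0.31 for E2 minus CON (SE 0.10) and 0.31 for HD minus CON (SE 0.11), and the interaction was -0.44 (SE 0.16, 95% interval -0.79 to -0.08). None passed after adjustment (adjusted p = 1 in limma for each). The feature carries 2 Entrez identifiers, so a copy of the gene may share its probes. The 250 bases before its start are printed with the NRF1-like letters in capitals.
Ndufs6, chr13:73328483-73328732, minus strand: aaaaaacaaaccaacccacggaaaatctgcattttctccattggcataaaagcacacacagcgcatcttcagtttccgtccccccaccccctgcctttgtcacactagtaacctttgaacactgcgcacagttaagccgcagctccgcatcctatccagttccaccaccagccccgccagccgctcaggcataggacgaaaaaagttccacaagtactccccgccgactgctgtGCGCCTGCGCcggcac

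Among the other accessory subunits of complex I, Ndufs5 hardly varied, at 7.10 to 7.23 over the 13 mice. Ndufv3 was highest in MIX (9.48, 9.50 and 9.26), above all CON mice (9.21 to 9.23) and overlapping E2 and HD. Ndufa2, a subunit of the NADH-oxidising part, had 8.93, 8.67, 8.72 and 8.55 in E2 against 8.52, 8.49 and 8.13 in CON, with no overlap, and the fit gave 0.31 (SE 0.11, adjusted p = 1 by limma). Its difference for MIX minus CON was 0.28 (SE 0.13), and 0.03 without the code style term. Ndufa9, which lies near the quinone site, was higher in all HD mice (8.63, 8.93 and 8.60) and in all MIX mice (8.58, 8.49 and 8.50) than in CON (8.31, 8.46 and 8.43). Ndufa5 was lower in MIX (7.05, 7.21 and 6.94) than in HD (7.42, 7.39 and 7.23), by a fitted -0.20 (SE 0.09, adjusted p = 0.710 by limma). Ndufa12 was -0.21 for MIX minus E2 (SE 0.15) and -0.06 without MIX replicate 3, whose value of 8.72 was the lowest of all mice. Ndufab1, the acyl carrier protein, stayed within 6.02 to 6.40 over all mice.

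Genes of the Ndufb and Ndufc series encode subunits of the membrane arm. Ndufb6 was lowest in CON (7.49, 7.57 and 7.54), below all HD mice (7.60 to 7.72) and all MIX mice (7.71 to 7.78), and overlapped E2 by 1 mouse at 7.55. Its difference for E2 minus CON was 0.24 (SE 0.11, adjusted p = 1 in limma), and 0.13 without E2 replicate 1. Ndufc2 averaged 8.78 in CON, 8.82 in E2, 8.71 in HD and 8.44 in MIX, but its MIX mice spread from 8.00 to 8.74. Its difference for MIX minus E2 was -0.44 (SE 0.24), and -0.22 without MIX replicate 3. Ndufb5 had the narrowest spread of group means of all members, from 6.77 in CON to 6.80 in MIX. The Ndufb4b feature, which may share probes with its near-identical copy Ndufb4, averaged 9.68 to 9.86.

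In complex III, Uqcrc1 and Uqcrc2 encode the core proteins and Uqcrfs1 the Rieske iron-sulfur protein. Uqcrc1 averaged 9.21 in CON, 9.02 in E2, 9.06 in HD and 9.06 in MIX, and its difference for E2 minus CON was -0.20 (SE 0.12, adjusted p = 1 in limma). It was -0.11 without CON replicate 2 and -0.32 without CON replicate 3. Uqcrc2 averaged 9.43 to 9.55 and Uqcrfs1 6.00 to 6.06 over the groups. Among the small subunits, Uqcrq had 8.21, 8.20 and 7.64 in CON, 8.37, 8.20, 8.36 and 8.18 in E2, 8.33, 8.26 and 7.95 in HD, and 8.23, 8.04 and 8.22 in MIX. One low CON mouse set its place. The difference for MIX minus CON was 0.37 (SE 0.11, adjusted p = 0.428 in limma), 0.19 without CON replicate 3 and 0.15 without the code style term. For E2 minus CON it was 0.23 (SE 0.09) and 0.13 without that mouse.

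The question for the set as a whole is whether estradiol, the diet or both shifted these genes together. In limma, 0 of 44 members passed an adjusted p of 0.05 in any of the 7 comparisons, and the background was as sparse. Called features made up 0% of the array for E2 minus CON, HD minus CON, MIX minus E2 and the interaction, 0.00303% for MIX minus CON, 0.00455% for MIX minus HD and 0.0167% for the pellet difference averaged over both diets. At an unadjusted p under 0.05 there were 4 members for E2 minus CON (background 4.02%), 3 for HD minus CON (background 2.91%), 3 for MIX minus CON (8.34%), 1 for MIX minus E2 (2.78%), 1 for MIX minus HD (7.05%), 3 for the interaction (2.1%) and 4 for the averaged pellet difference (9.99%). These are 1 to 4 genes a comparison, too few to set against the background share.

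Small differences from CON were more often above 0 than below. In E2 this held for 32 of 44 members (46.5% of all features), with a median of 0.06 against -0.01 over all features, and without E2 replicate 1 for 25 of 44, with a median of 0.02. In HD it held for 35 of 44 (57.2%), with a median of 0.07 against 0.02, and without HD replicate 2 for 29 of 44, with a median of 0.04. In MIX it held for 28 of 44 (42.5%), with a median of 0.06 against -0.03, without MIX replicate 3 for 32 of 44 (median 0.13), without MIX replicate 2 for 23 of 44 (median 0.02) and without the code style term for 27 of 44 (median 0.02). Members are not replicates, and these medians are smaller than the interval of a single member. They share the CON mice and move with the scaling of the arrays: centred on their medians, the arrays gave 36, 31 and 34 of 44 above 0 in E2, HD and MIX, and quantile normalized again 28, 34 and 25.

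Between MIX and the single treatments the set had no settled direction. MIX was above E2 for 18 of 44 members (43.65% of all features), with a median of -0.02, as over all features. It was above HD for 19 of 44 (37.5%), with a median of -0.01 against -0.04. With the arrays centred, however, these counts were 28 and 33 of 44. Without MIX replicate 3 the counts were 30 and 28, without MIX replicate 2 they were 12 and 13, and without the code style term 10 and 14. The interaction was above 0 for 11 of 44 (40.4% of all features), with a median of -0.10 against -0.04 over all features. It was above 0 for 18 with the arrays centred, for 8 without MIX replicate 2 and for 7 without the code style term. Without E2 replicate 1 and MIX replicate 3 it was above 0 for 22 of 44 (median 0.00). The averaged pellet difference was above 0 for 26 of 44 (38.85% of all features), with a median of 0.03 against -0.03 over all features. It was above 0 for 35 with the arrays centred, for 21 when quantile normalized again, and for 19 without E2 replicate 1. Its smallest p values belonged to Ndufa1 (0.33, SE 0.10), Ndufa4l2 (0.35, SE 0.11), Uqcrq (0.22, SE 0.07) and Ndufa2 (0.24, SE 0.08), with adjusted p of 0.353 to 0.408 in limma. Ndufb6 (0.15, SE 0.08) and Uqcr10 (0.21, SE 0.12) followed.

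**Figure D2:**
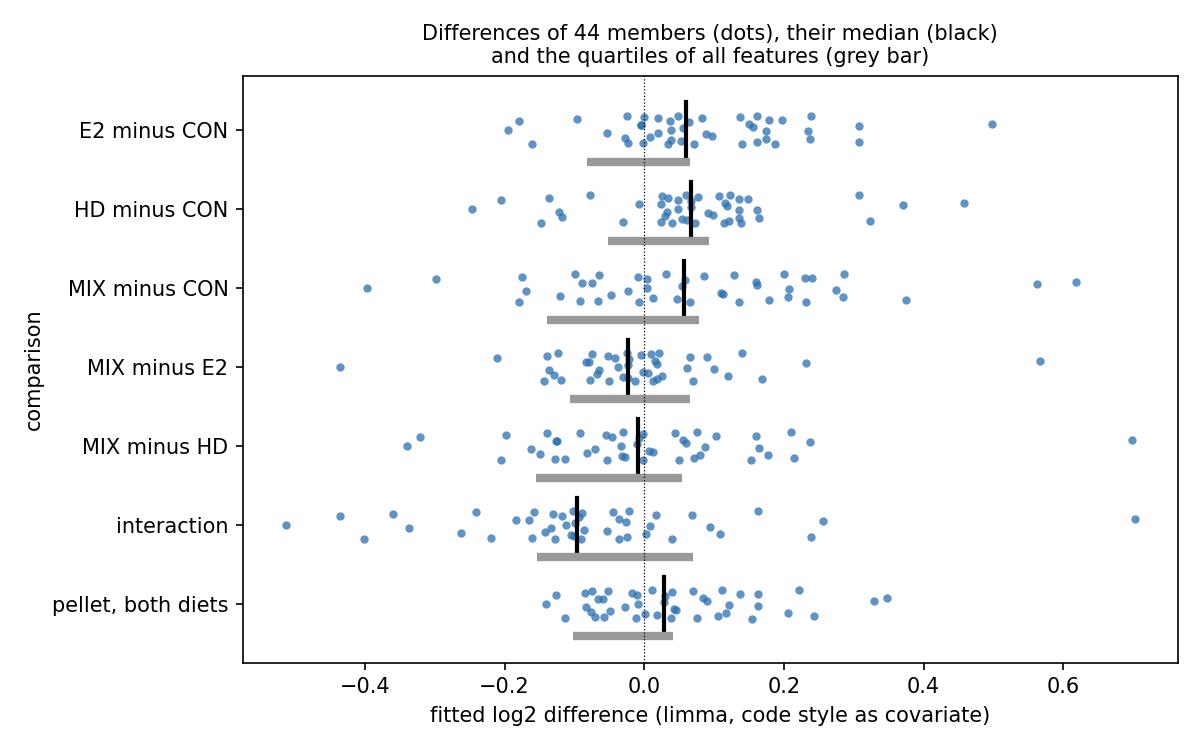
Fitted log2 differences (x axis) of the 44 members (dots) in 7 comparisons (y axis; dots are spread vertically for legibility), their median (black line), and the quartiles of all 65929 features (grey bar). Most members lie within 0.2 of 0, and Ndufa1 and Ndufa4l2 lie farthest above it.

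The members whose groups did not overlap were few. For E2 against CON, 3 members were above (Ndufa1, Ndufs6 and Ndufa2, background 3.01%) and 1 below (Ndufs7). For HD against CON, 3 were above (Ndufa1, Ndufa9 and Ndufb6, 5.58%) and Ndufs7 below. For MIX against CON, 5 were above (5.52%) and 2 below (12.4%), and for MIX against HD, 1 was above (3.47%) and 6 below (12.4%). For MIX against E2, Ndufa4l2 was above (1.5%), and Ndufs6, Ndufa4 and Ndufv2 were below (4.15%).

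By role, the 5 small subunits of complex III and the 3 NADH-oxidising core subunits all had differences above 0 in HD against CON (57.2% of all features). So had 11 of 14 Ndufa genes, 9 of 12 Ndufb and Ndufc genes and 3 of 4 other Ndufs and Ndufv genes. The quinone-reducing core had 2 of 3, as had the core and Rieske genes of complex III. The first 2 roles were also all above 0 in E2 against CON (46.5% of all features). The group mean was highest in E2 for 20 members (19% of all features), in HD for 15 (34.4%), in MIX for 5 (20.4%) and in CON for 4 (26.2%). Without E2 replicate 1 and MIX replicate 3 this order turned: MIX was highest for 21 members (20.9%), HD for 17 (33.3%), E2 for 3 (21.3%) and CON for 3 (24.4%). CON was the lowest group for 23 members (21.9%) and MIX for 13 (48.1%). Without the 2 mice, CON was lowest for 20 (21.3%), E2 for 13 (17.4%) and MIX for 7 (47.5%). Which treated group is highest over the set thus rests on these mice.

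The mean over the set was highest in E2 replicate 1 and lowest in MIX replicate 3. E2 replicate 1 was the highest of all 13 mice for 23 members (52.3%, against 7.83% of all features), and it lay above the gene's mean for 37 of 44, by 0.234 on average. Among them were Ndufs8 (9.94), Uqcrc2 (10.03), Uqcrb (10.98) and Ndufb9 (11.19). MIX replicate 3 was the lowest mouse for 16 members (17.2% of all features) and lay below the mean for 41 of 44, by 0.174 on average, with Ndufc2 at 8.00 and Ndufa12 at 8.72. These are the mice with the highest granulocyte markers, 1 above and 1 below the mean, and the part of these cells in the deviations was not tested. The remaining mice had mean deviations from -0.101 (E2 replicate 3) to 0.091 (HD replicate 2). Group means of the deviation were -0.049 in CON, 0.040 in E2, 0.021 in HD and -0.025 in MIX. The spread of all 13 mice within groups was 0.110 (SD), which includes these 2 mice. Without the 2 mice the group means were -0.025 in E2 and 0.049 in MIX.

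**Figure D3:**
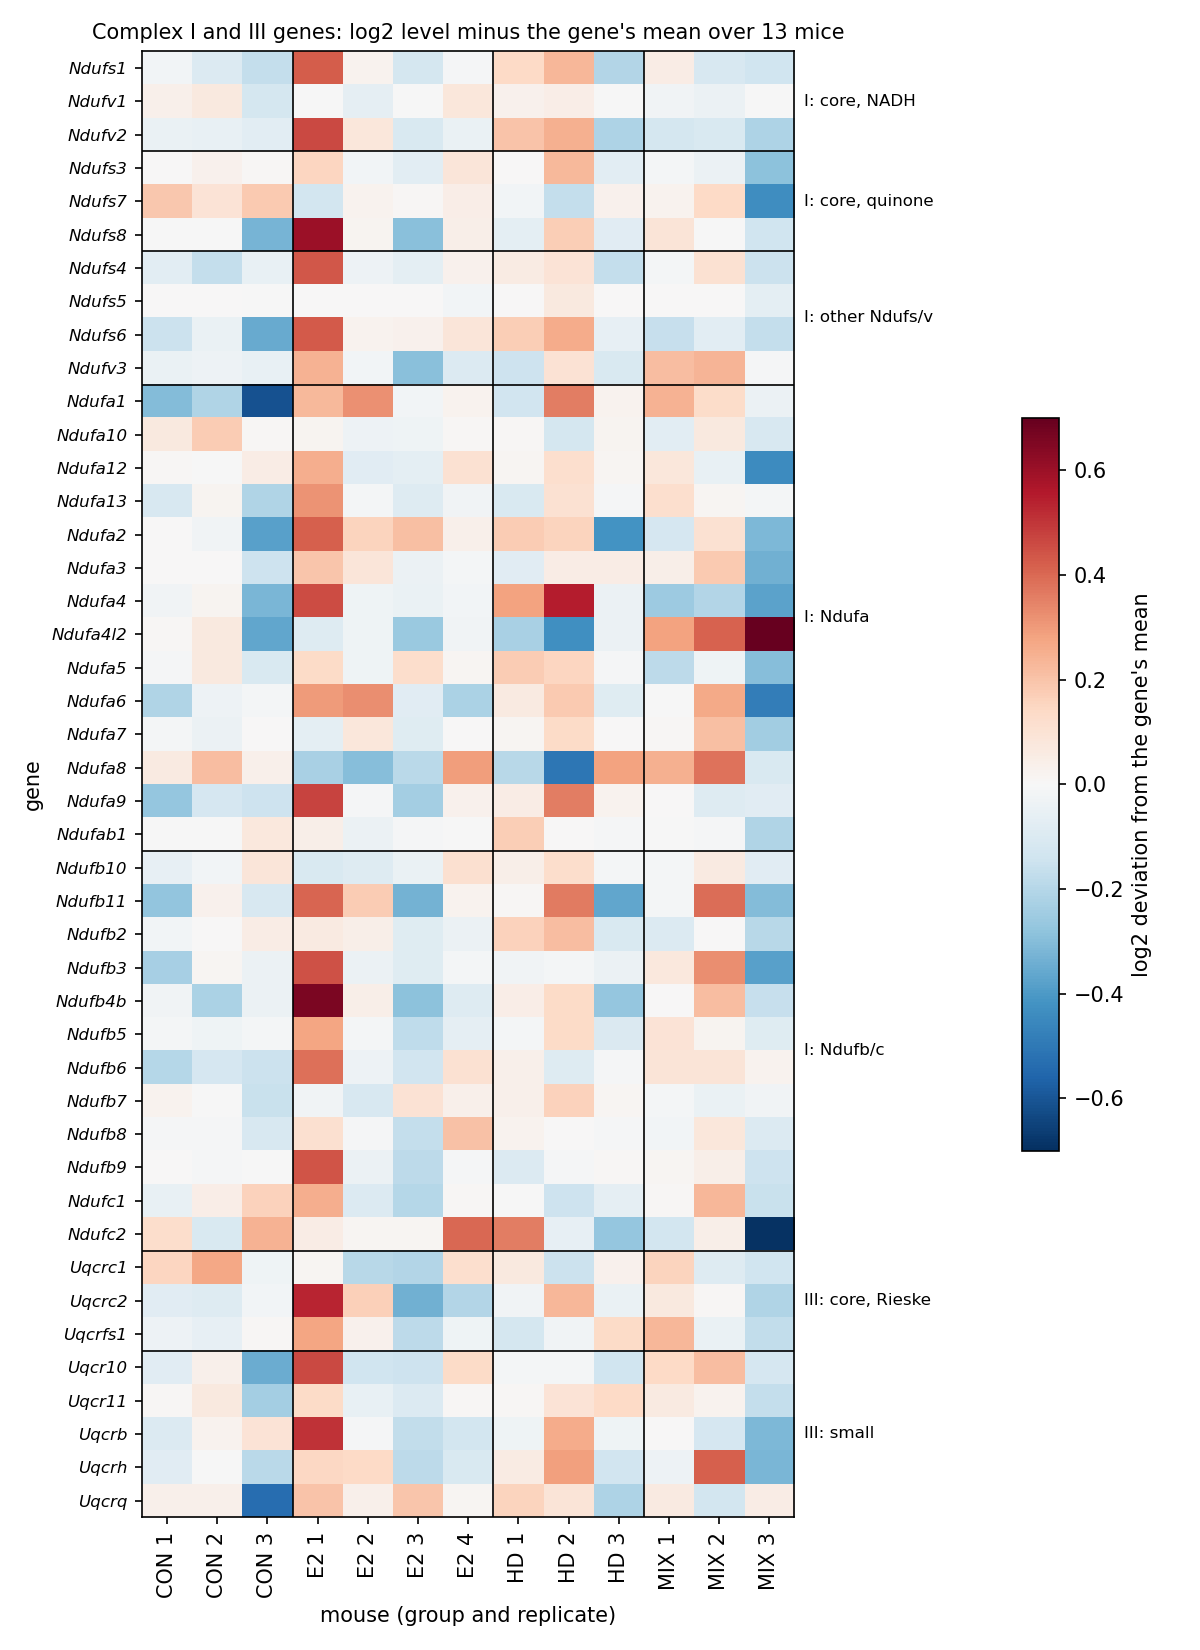
Log2 level minus the gene's mean over all mice (colour, red above and blue below) for the 44 members (rows, ordered by role) in the 13 mice (columns, by group). The column of E2 replicate 1 is mostly red (37 of 44 members above their mean) and that of MIX replicate 3 mostly blue (41 of 44 below).

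The members also moved together across mice. The median Pearson correlation of a pair of members was 0.394 over the 13 mice. Pairs of 19465 genes with levels above the median feature had 0.001 over the same mice. After group means were removed the members' median was 0.429. Without E2 replicate 1 and MIX replicate 3 it was 0.242. No value for other genes is given for either of these settings. These values share the arrays and their normalization and are given as a description. Ndufs8 (0.876), Ndufs4 (0.865) and Ndufb5 (0.839) followed the mean of the other members most closely. Ndufa4l2 (-0.285) and Ndufa8 (-0.216) ran against it, and Ndufs7 (0.024) and Ndufb10 (0.052) were near 0. Without the 2 mice, Ndufa4l2 had 0.237, Ndufs7 -0.494 and Ndufb10 0.388.

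Other parts of the respiratory system were given by lists of their genes, and 0 members of these lists passed in limma in any comparison. At an unadjusted p under 0.05, no list had more than 3 members in a comparison. Of all features, 46.5% were above CON in E2, 57.2% in HD and 42.5% in MIX, for reading the counts that follow. Mitochondrially encoded subunits were measured for 3 of 8 listed genes, ND2, ND3 and ND6. ND6 averaged 10.59 in CON, 10.83 in E2, 10.79 in HD and 10.83 in MIX, and ND3 11.84 to 11.91. Assembly factors of complex I were above CON in MIX for 3 of 17 (median -0.12). This held for 6 of 17 (median -0.07) without MIX replicate 3 and for 7 of 17 with the arrays centred. They were above CON in E2 and in HD for 11 of 17 each. Among them, Acad9 averaged 7.03 in CON and 7.45 in MIX, where 1 mouse had 7.93. Complex II had 6 of 8 genes above CON in E2, 7 of 8 in HD and 5 of 8 in MIX. Complex IV had 8 of 14 in E2, 8 of 14 in HD and 6 of 14 in MIX, but 5 of 14 in E2 without E2 replicate 1 and 11 of 14 in MIX without MIX replicate 3. ATP synthase had 8 of 14 in E2, 10 of 14 in HD and 8 of 14 in MIX, but 6 of 14 in E2 without E2 replicate 1 and 3 of 14 in MIX without the code style term. Genes of the citrate cycle, which supplies NADH, were above CON for 2 of 12 in E2, 3 of 12 in HD and 3 of 12 in MIX. Their medians were -0.05, -0.07 and -0.13. Genes of mitochondrial ribosomes and import were above CON for 12 of 18 in E2, 8 of 18 in HD and 6 of 18 in MIX, and for 1 of 18 in MIX without the code style term.

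Cycs, which encodes the cytochrome c that complex III reduces, averaged 8.53 ± 0.30 in CON (SD, n = 3), 9.24 ± 0.46 in E2 (SD, n = 4), 8.88 ± 0.49 in HD (SD, n = 3) and 8.68 ± 0.46 in MIX (SD, n = 3). All E2 mice (8.92 to 9.93) lay above all CON mice (8.35 to 8.87; background 3.01%), and the fitted value was 0.67 (SE 0.28, adjusted p = 1 by limma), or 0.48 without E2 replicate 1. Regulators of mitochondrial biogenesis were above CON for 3 of 12 in E2 (46.5% of all features), 6 of 12 in HD (57.2%) and 2 of 12 in MIX (42.5%). Ppargc1a, the coactivator that drives this programme, had 7.24, 7.37 and 8.30 in CON, 6.76, 6.67, 5.96 and 7.03 in E2, 6.96, 6.51 and 7.12 in HD, and 6.98, 6.96 and 5.59 in MIX. Every treated mouse was below every CON mouse, as for 0.37% of all features. The difference for MIX minus CON was -1.56 (SE 0.41, adjusted p = 0.368 in limma), or -1.10 without MIX replicate 3, and for E2 minus CON it was -0.98 (SE 0.33). The subunit genes described above did not share this order: Ndufa1 alone separated all treated mice from CON, in the other direction.

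**Figure D4:**
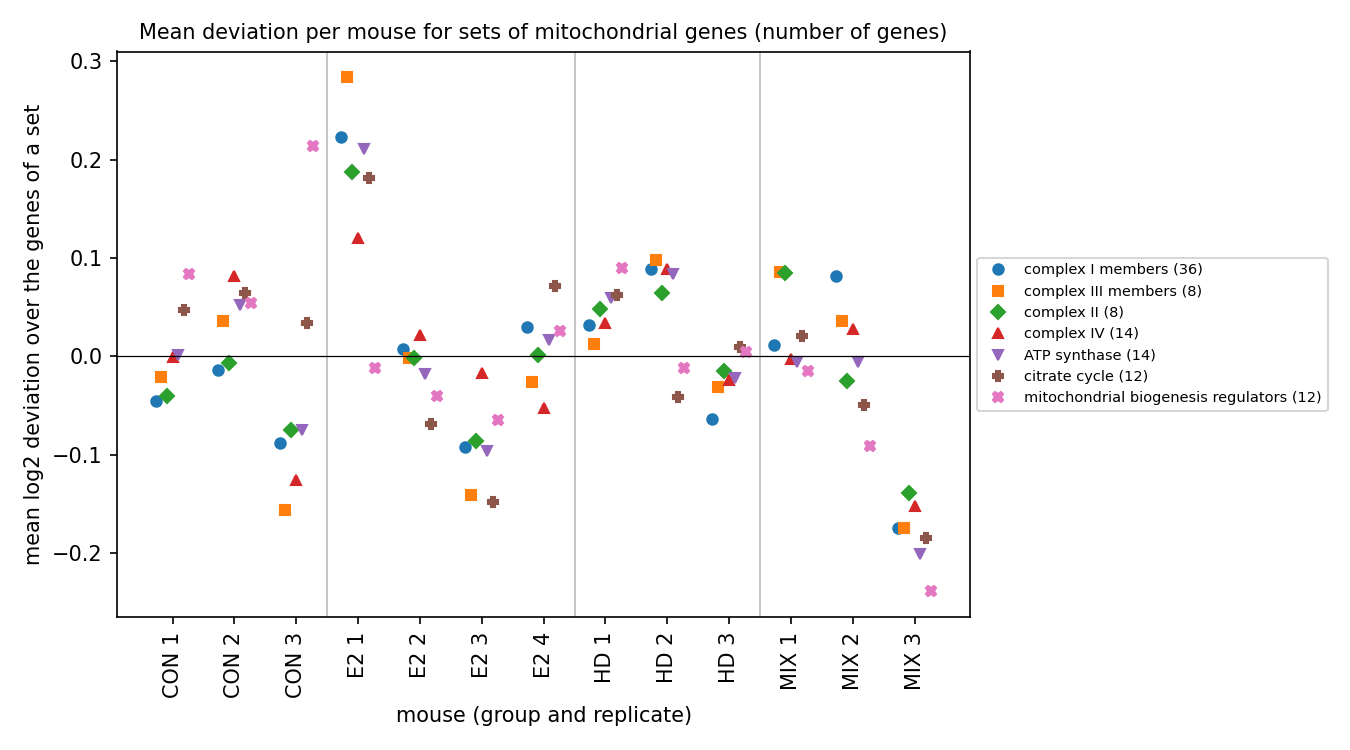
Mean log2 deviation from each gene's mean (y axis) over 7 sets of mitochondrial genes in each mouse (x axis; number of genes in brackets). In E2 replicate 1 complex I (0.223) and complex III (0.284) are high together with complexes II and IV and ATP synthase, while biogenesis regulators are highest in CON replicate 3 (0.214).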

How the data were processed

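Endometrial RNA of 13 mice (CON 3, E2 4, HD 3, MIX 3; 1 array each) was hybridised from 250 ng on Affymetrix arrays. The authors deposited log2 values for 65929 features, and the submitters' processing notes name RMA. Its version, the array library and any filters are not stated there. RMA uses all arrays together and compresses small differences of dim features.

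Features were named through the platform's gene table, with symbols updated by Entrez identifier. Features with several symbols (2 among the candidates, for Ndufb4 and Ndufa11) were left out. Promoter sequences are from RefSeq (assembly GRCm38.p6), while the genome build behind the deposited values is not stated.

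Differences were fitted in R 4.3.3 with limma 3.58.1 (lmFit, then eBayes). All 13 mice entered 1 fit with 4 group terms and the style of the animal code in the title (numbered, or lettered as in all MIX mice) as covariate. The labels do not explain the styles. The fit had 8 residual and 2.225 prior degrees of freedom. Tests were two-sided, with Benjamini-Hochberg adjustment over all features and a threshold of 0.05. The script was tested on simulated data.

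Members, lists, comparisons and alternatives were chosen with earlier results of these data known. Per comparison the 6 members with the smallest p were considered, besides core subunits, Ndufa4, Ndufa4l2 and the members with the widest and narrowest group means. Levels of different probes are set against the median feature alone, as a check of detection. The alternatives were fits without code style and with replicate number as a block, arrays centred or quantile normalized again, bright features only, other variance settings and leaving out mice. Ppargc1a and Cycs were among the 2 genes with the smallest p of their lists. That every treated mouse lay below CON for Ppargc1a was seen after its values.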

Additional observations from a re-analysis of the deposited data

Results flagged for a closer look

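Within the 4 E2 mice, 1 value lay far from the others for 5 of 44 members. For a single gene chance gives about 1 in 20, and no share over all features is given here. The members moved together across mice, so these genes are not separate cases and the count is not a result about the set. E2 replicate 1 was far above the rest for Ndufa4 (10.50), Ndufb3 (7.35) and Ndufs6 (9.39). E2 replicate 4 was far above for Ndufc2 (9.10) and slightly but alone below for Ndufs5 (7.14, where the other 3 had 7.17).

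The Ndufs6 pellet difference had opposite signs on the 2 diets, with a difference between the diets of -0.58 in plain group means. All E2 mice lay above all CON mice, and all MIX mice below all HD mice, the nearest at 8.88 and 8.90. The HD mouse at 8.90 carries a lettered code, like all MIX mice. The fitted interaction was -0.44 (SE 0.16) and did not pass in limma (adjusted p = 1).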

How the results depend on the processing

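In all 23 alternatives 0 members passed the threshold, and the smallest adjusted p of a named difference was 0.119. After group means were removed, same-numbered mice had correlations from -0.261 to 0.31 (18 pairs), highest for E2 replicate 2 with HD replicate 2. With groups of 3 or 4 mice, these correlations cannot settle whether the numbers pair the mice. With a replicate block and code style, the median member difference was -0.057 for MIX minus CON (12 of 44 above 0), -0.176 for MIX minus E2 (6 of 44), -0.160 for MIX minus HD (9 of 44) and -0.272 for the interaction, and Ndufv3 was -0.10 for MIX minus E2. Without E2 replicate 1 and MIX replicate 3, an alternative chosen after seeing the data, the median for MIX minus E2 was 0.093. Uqcrq reversed without code style, to -0.11 for MIX minus E2 and -0.02 for MIX minus HD, and with a replicate block without code style, to -0.15 and -0.02. The cause was not tested. Leaving out 1 mouse at a time, medians ranged from 0.024 to 0.126 for E2 minus CON, 0.042 to 0.099 for HD minus CON, 0.015 to 0.131 for MIX minus CON, -0.077 to 0.039 for MIX minus E2, -0.047 to 0.064 for MIX minus HD, -0.139 to -0.032 for the interaction and -0.016 to 0.077 for the averaged pellet difference. Of single members, 19 group levels moved by more than their SD. The number of mice, 3 or 4 a group, limits the precision.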
